A study of Nomascus leucogenys with 9 samples.

Results

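The heat shock transcription factor HSF1 and the chaperones it is known to control were followed across lymphoblastoid lines of the northern white-cheeked gibbon (Nomascus leucogenys). The genes were taken as 10 human Ensembl identifiers, given with their symbols, and 8 of them had a row among the 15356 rows of the deposited expression table. No row was found under the identifiers of HSPA1A (ENSG00000204389) and HSPA1B (ENSG00000204388), the stress-inducible HSP70 genes, so these were not analysed here. The 8 genes described are HSF1, HSPA8, HSP90AA1, HSP90AB1, HSPH1, DNAJB1, HSPD1 and HSPE1. All 8 passed the filter on low rows, set at a mean of 1 part in 1000000 (1 ppm) of the summed linear values, which kept 12590 rows in all.

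RNA-seq libraries came from 9 lines, each made by Epstein-Barr virus transformation of lymphocytes from a different animal, and the lines carry the names Asia, Bobby, China and Khao, then Melouprey, Nancy and Phyllis, and lastly Ricky and Vok. The series concerns LAVA, a retrotransposon of gibbons, and its use by the host genome. All lines belong to 1 group with no treatment, no heat stress and no contrast between animals, and with 1 library each. Animal, transformation and culture therefore cannot be told apart, and neither can a difference in RNA per cell from one in the mix of cells. The table pairs no other identifier with a symbol, so the labelled cell type was not checked against B cell markers.

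Heat shock proteins are chaperones that fold new proteins and refold damaged ones. HSF1 is held inactive by chaperones in unstressed cells, and is released to bind heat shock elements in the promoters of chaperone genes when unfolded protein accumulates. Its activity is set largely after transcription, by trimer formation, movement into the nucleus and phosphorylation. Transformed and dividing lymphoid cells carry high constitutive amounts of the cytosolic HSP70 and HSP90 proteins.

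The chaperones differed between the lines by moderate factors, and HSF1 by much less. The median range of the kept rows was 0.68 log2 units, and HSPH1, DNAJB1, HSPD1 and HSPE1 also had ranges below it. HSPA8 and HSP90AA1 spanned more than 2-fold from the lowest to the highest line, so 2 of the 8 genes did, against a background of 26.4% of the 12590 kept rows. Melouprey was above the median of the lines for all 8 genes, and Vok stood far above it for HSPA8 and HSP90AB1. Levels are on the authors' log scale, read here as log2. Whether they are divided by gene length is not given, so they are compared between lines within a gene and not between genes. With 1 library for each line there is no error on a single line's value, and neighbouring lines in the order of a gene cannot be said to differ.

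**Figure D1:**
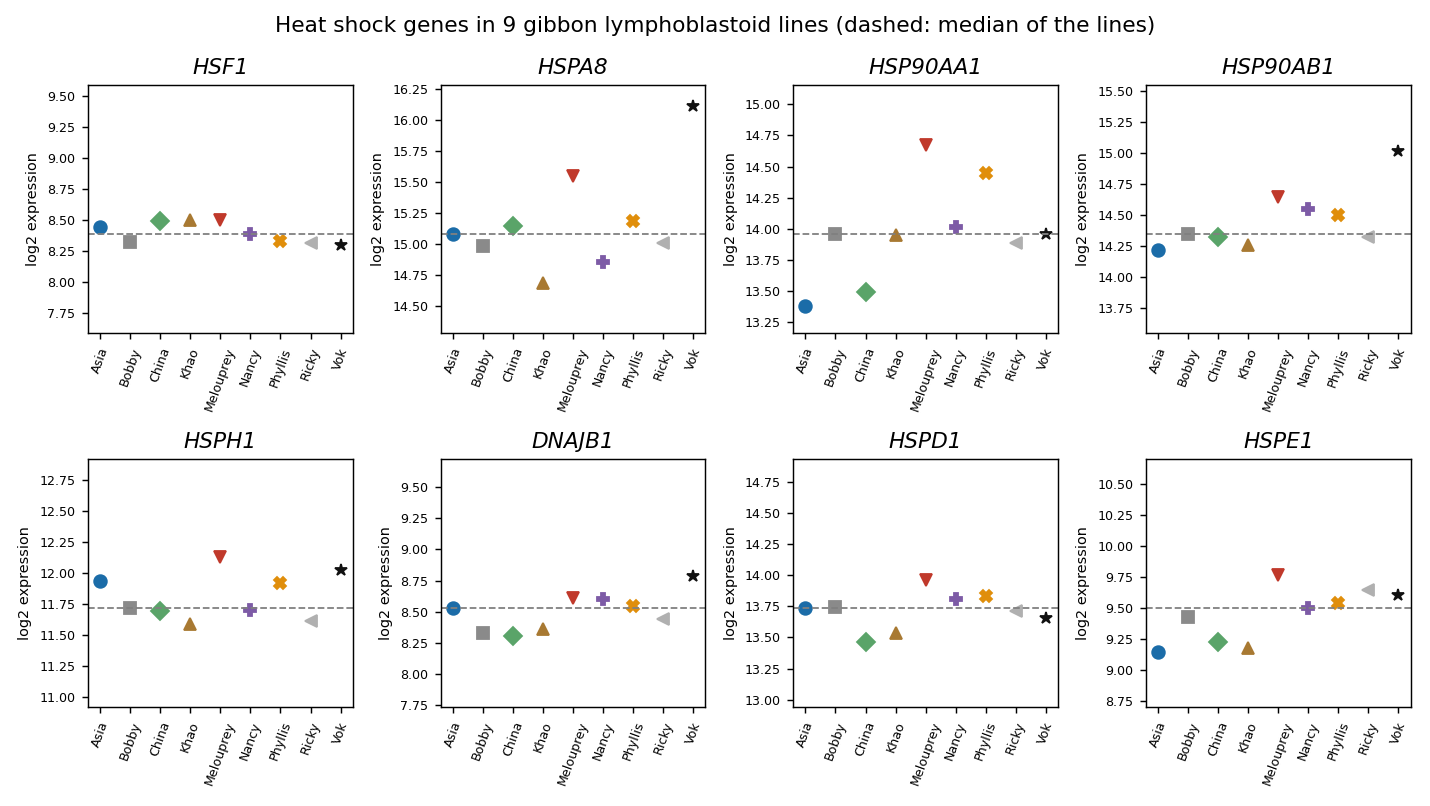
Log2 expression (y axis, the same span of 2 log2 units in each panel) of the 8 genes in each of the 9 lines (x axis), with 1 point a library and a dashed line at the median of the lines. HSF1 is nearly flat, Vok is highest for HSPA8 at 16.11, and Melouprey is highest for HSP90AA1 at 14.67.

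HSF1 (ENSG00000185122) varied least. Its log2 level was lowest in Vok, at 8.30, had a median of 8.39, and was highest in Khao and Melouprey, at 8.50 in both (mean 8.40 ± 0.085, SD, n = 9). The full range was 0.20 log2 units, a 1.15-fold difference. Only 2.54% of the kept rows had a smaller SD, and 2.35% of the 1914 rows within 0.5 log2 units of its level. The rows at that level had a median SD of 0.22 log2 units. Vok and Melouprey, the lines with the largest excess of chaperone mRNA, lay at opposite ends of the HSF1 range.

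**Figure D2:**
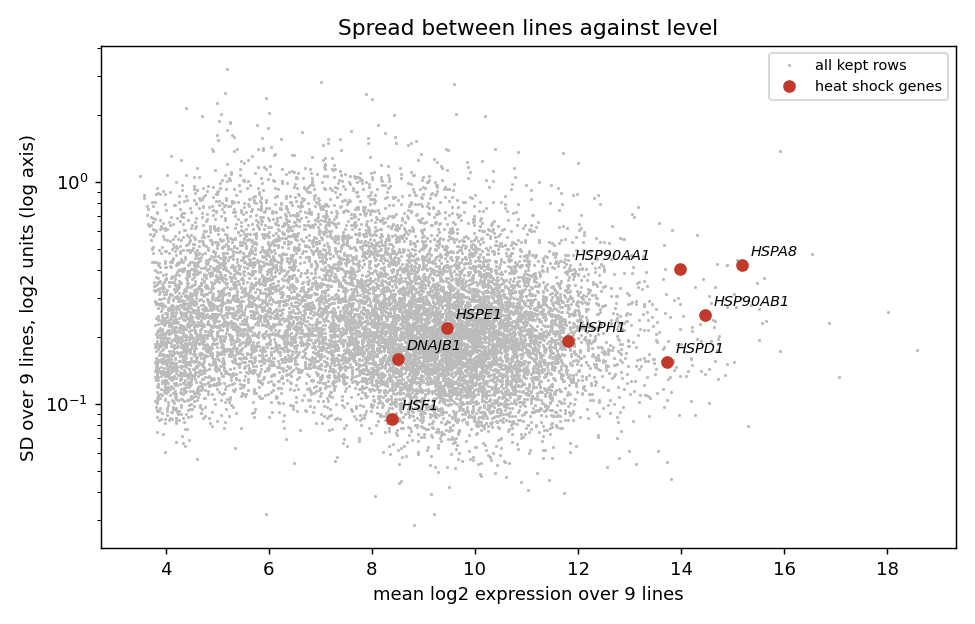
SD over the 9 lines in log2 units (y axis, log axis) against mean log2 expression (x axis) for the 12590 kept rows (grey points) and the 8 heat shock genes (red points). HSF1, at an SD of 0.085, lies along the lower edge of the rows of its level, and HSPA8, at 0.42, and HSP90AA1, at 0.41, lie above most rows.

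HSPA8 (ENSG00000109971) encodes HSC70, the constitutive cytosolic HSP70 that folds nascent chains and strips clathrin from vesicles. Its log2 level was lowest in Khao, at 14.69, had a median of 15.08, and was highest in Vok, at 16.11, followed by Melouprey at 15.55 (mean 15.18 ± 0.42, SD, n = 9). The other lines lay between 14.86 and 15.19. The range was 1.42 log2 units, a 2.68-fold difference, and without Vok it was 0.86. Vok was 2.04-fold above the median of the lines. In that line 1.04% of the kept rows had a larger positive deviation, and 0.387% of the 2328 rows that averaged 100 ppm or more. HSPA8 was the row of rank 5 by level in Vok, and ranked between 13 and 32 elsewhere, so its place in the line moved as well as its scaled value. It made up 5153 ppm of the linear total in Vok and 1890 ppm in Khao.

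The partners of HSP70 in the cytosol followed smaller ranges. HSPH1 (ENSG00000120694) encodes HSP110, the nucleotide exchange factor that releases substrate from HSP70. Its log2 level was lowest in Khao, at 11.59, had a median of 11.72, and was highest in Melouprey, at 12.13, with Vok at 12.02 and Asia at 11.93 (mean 11.81 ± 0.19, SD, n = 9). The 1.46-fold range was ordinary for the table, where 40.3% of the kept rows had a smaller SD.

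DNAJB1 (ENSG00000132002) encodes an HSP40 that delivers substrate to HSP70, starts its ATP hydrolysis, and is a sensitive target of HSF1. Its log2 level was lowest in China, at 8.30, had a median of 8.53, and was highest in Vok, at 8.79 (mean 8.50 ± 0.16, SD, n = 9). Melouprey and Nancy followed, at 8.61 and 8.60. The range was 0.49 log2 units, a 1.40-fold difference, and 0.31 without Vok.

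The HSP90 genes encode the cytosolic chaperone of kinases and steroid receptors, in a form that stress induces (HSP90AA1, ENSG00000080824) and a form that is expressed constitutively (HSP90AB1, ENSG00000096384). They were highest in different lines. HSP90AA1 had its lowest log2 level in Asia, at 13.37, and China, at 13.49, a median of 13.96, and its highest in Melouprey, at 14.67, and Phyllis, at 14.44 (mean 13.97 ± 0.41, SD, n = 9). The remaining lines lay between 13.89 and 14.01. Its range was 2.46-fold, and 82.0% of the kept rows had a smaller SD, as had 91.8% of the 61 rows within 0.5 log2 units of its level. In Melouprey, 1.21% of the kept rows lay further above their median than HSP90AA1 did.

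HSP90AB1 had its lowest log2 level in Asia, at 14.22, a median of 14.35 and its highest in Vok, at 15.01, with Melouprey at 14.65 (mean 14.46 ± 0.25, SD, n = 9). The range was 0.79 log2 units, a 1.73-fold difference, and without Vok it was 0.42. Vok, which was 1.59-fold above the median for HSP90AB1, was at the median for HSP90AA1 to within 0.0001 log2 units. The log2 difference HSP90AA1 minus HSP90AB1 was therefore lowest in Vok, at -1.06, and highest in Melouprey, at 0.028, a shift of 2.12-fold in the balance of the genes between those lines. It was -0.85 in Asia and -0.83 in China, and lay between -0.54 and -0.053 in the other lines. The coding sequences of these genes are similar, and how reads shared between them were counted is not given in the sources used here, so the split between them is uncertain.

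The mitochondrial chaperonin is made of HSP60, encoded by HSPD1 (ENSG00000144381), and its lid HSP10, encoded by HSPE1 (ENSG00000115541). In mammals the genes lie head to head over a shared promoter region. HSPD1 had its lowest log2 level in China, at 13.46, a median of 13.74 and its highest in Melouprey, at 13.97 (mean 13.72 ± 0.15, SD, n = 9). HSPE1 had its lowest in Asia, at 9.15, a median of 9.503 and its highest in Melouprey, at 9.77 (mean 9.45 ± 0.22, SD, n = 9). Khao and China were also low for both. Vok, the highest line for HSPA8, was below the median for HSPD1, at 13.66, and 0.10 log2 units above it for HSPE1. The log2 difference HSPD1 minus HSPE1 ran between 4.05 in Vok and 4.59 in Asia (SD 0.16, n = 9). The ratio of the pair therefore differed by up to 1.45-fold between lines.

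**Figure D3:**
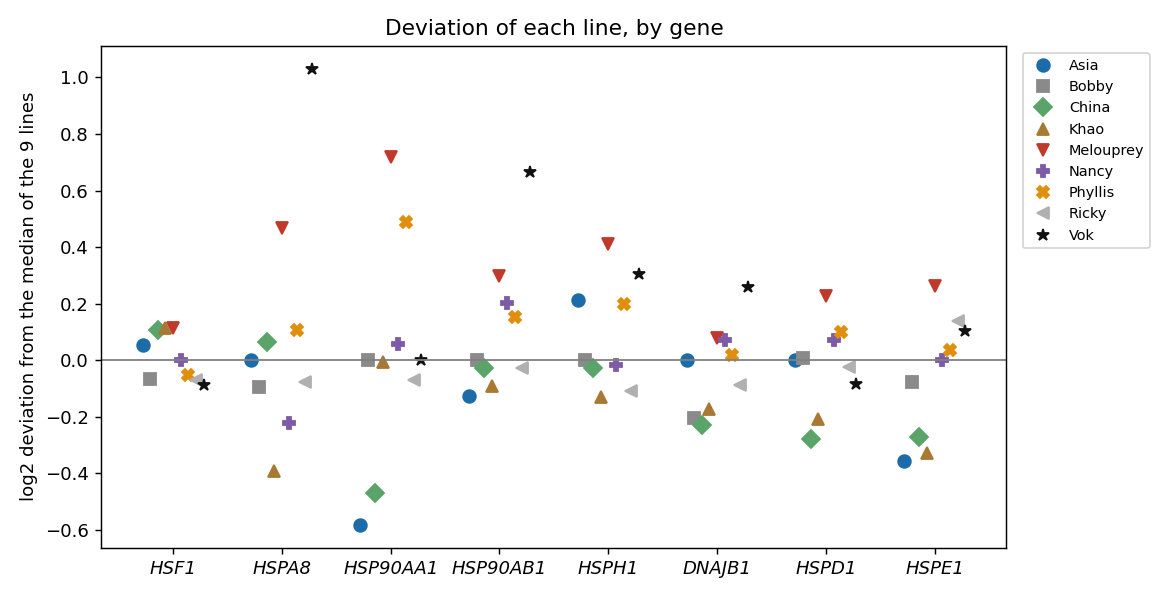
Log2 deviation of each line from the median of the 9 lines (y axis) for the 8 genes (x axis), with 1 symbol a line. Melouprey lies above 0 for each gene, and Vok reaches 1.03 for HSPA8 and 0.67 for HSP90AB1 but lies at 0 for HSP90AA1 and at -0.08 for HSPD1.

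Read by line, Melouprey and Vok had the largest excess, in sets of genes that overlapped in part. Melouprey was above the median for 8 of 8 genes, against 44.3% of the kept rows, with a median deviation of 0.28 log2 units, against 0 over the kept rows. Its deviations ran between 0.079 for DNAJB1 and 0.72 for HSP90AA1, and it was the highest line for 4 genes (HSP90AA1, HSPH1, HSPD1 and HSPE1), against 8.06% of the kept rows. Phyllis was above the median for all 7 chaperones and below it for HSF1, so 7 of 8 genes, against 44.7% of the kept rows, with a smaller median deviation of 0.10. Vok was above the median for 5 of 8 genes, against 49.3% of the kept rows, at the median for HSP90AA1 and below it for HSPD1 and HSF1. The genes above it were HSPA8, HSP90AB1, HSPH1, DNAJB1 and, by 0.10 log2 units, HSPE1. In Vok, 1.04% of the kept rows lay further above their median than HSPA8 did and 3.99% than HSP90AB1. The share was 18.8% for HSPH1, 22.0% for DNAJB1 and 37.8% for HSPE1, so these were not unusual for that line. In Melouprey it ran between 1.21% for HSP90AA1 and 31.5% for DNAJB1. Vok was the highest line for 3 genes (HSPA8, HSP90AB1 and DNAJB1), against 21.7% of the kept rows.

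The low lines were Khao, with 1 of 8 genes above the median (41.9% of the kept rows) and a median deviation of -0.15, and China, with 2 of 8 (44.4%) and -0.13. HSF1 was the only gene more than 0.1 log2 units above its median in either line. Ricky had 1 of 8 genes above the median, against 39.3% of the kept rows, but its deviations were small, at -0.11 or above. Asia had 2 of 8 genes above the median (53.1% of the kept rows), Bobby 1 of 8 (41.5%) and Nancy 4 of 8 (41.1%). HSP90AA1, HSP90AB1 and HSPE1 were lowest in Asia, but the share of kept rows lowest there was not computed. Deviations of the kept rows were widest in that line, with an SD of 0.53 log2 units, against 0.22 to 0.42 in the others. Summed over the 8 genes, the share of the linear total was 10075 ppm in Vok, 8762 ppm in Melouprey and 7384 ppm in Phyllis. It lay between 5583 ppm in Khao and 6395 ppm in Nancy elsewhere. HSPA8 alone gave 5153 ppm in Vok and 3444 ppm in Melouprey, and the place of Vok above Melouprey rested on this gene. Whether the levels are divided by gene length is not given, so the weight of each gene in the sum is uncertain.

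Whether the genes moved together was tested with Pearson's r over the 9 lines, for each of the 8 genes against every kept row (100712 relations), with an exact two-sided permutation test over all 362880 orderings of the lines and Benjamini-Hochberg adjustment over all relations. No pair of the 8 genes passed the threshold of 0.05, and neither did any other relation (background 0%), with a smallest adjusted p of 0.069. The count of 0 does not show that the genes were unrelated. At an unadjusted p under 0.05 there were 9 of 28 pairs by Pearson's r, against 13.4% of all relations, and 6 by Spearman's rho, against 9.67%. A limma fit of each row on the level of the gene gave 10 pairs, where a pair counted if its fit in either direction passed. The pairs HSP90AB1 with HSPH1 and HSPD1 with HSPE1 passed in a single direction. The background of 13.6% counts each directed fit by itself, so it is not a like-for-like reference for these pairs. With Benjamini-Hochberg adjustment the limma fit called 5 of the 100712 relations (0.00496%), none of them between the 8 genes.

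As a description, all 21 pairs among the 7 chaperones had a positive r, against 50.4% of the relations between a chaperone and a kept row. Their r had a median of 0.60 and lay between 0.19 (HSPA8 and HSPD1) and 0.86 (HSPA8 and HSP90AB1). The 9 pairs with an unadjusted p under 0.05 were all among these 21, and all positive, against 7.98% of the relations of a chaperone with a kept row. By gene, that background ran between 2.44% for HSPD1 and 14.2% for HSPA8, and was 10.4% for HSP90AB1. The pooled share is therefore low for pairs with HSPA8 or HSP90AB1. All 21 stayed positive under each rescaling and with any line but Khao or Melouprey left out. Without either of those lines 20 were positive, and HSPA8 and HSPD1 had r = -0.0095 without Melouprey, while without Vok their r was 0.56. The pairs share genes and lines, so they are not 21 separate observations. Without Melouprey 4 pairs had an unadjusted p under 0.05, and without Khao 5.

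**Figure D4:**
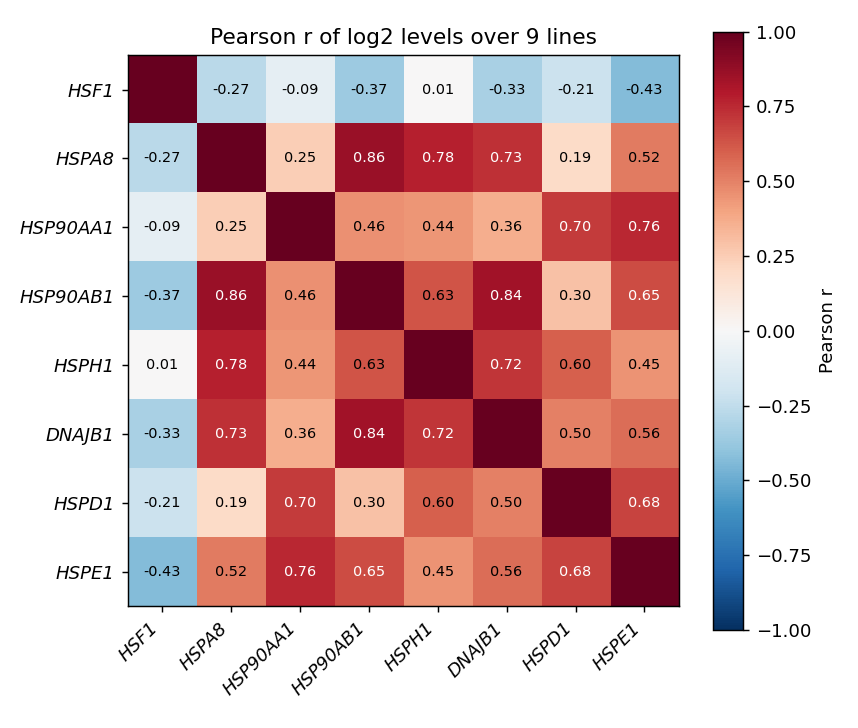
Pearson r of log2 levels over the 9 lines for each pair of the 8 genes (both axes, colour scale between -1 and 1, value printed in each cell). The HSF1 row is near 0 or negative, and HSPA8, HSP90AB1, HSPH1 and DNAJB1 reach 0.63 to 0.86 with each other. HSP90AA1 reaches 0.70 and 0.76 with HSPD1 and HSPE1.

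HSPA8, HSP90AB1, HSPH1 and DNAJB1 gave the 3 highest values of r, and are grouped here by these values. HSP90AA1, which is also cytosolic, had an r of 0.25 to 0.46 with them. HSPA8 and HSP90AB1 had r = 0.86 (exact permutation p = 0.0089, adjusted p = 0.23) and rho = 0.53 (exact permutation p = 0.15, adjusted p = 0.60). That value rested on the high lines, because r was 0.57 without Vok and 0.11 without Melouprey and Vok (n = 7). HSP90AB1 and DNAJB1 had r = 0.84 (exact permutation p = 0.0041, adjusted p = 0.19), rho = 0.75 (exact permutation p = 0.025, adjusted p = 0.40) and r = 0.56 without Melouprey and Vok.

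The relation of HSPA8 with its exchange factor HSPH1 did not rest on Vok. They had r = 0.78 (exact permutation p = 0.0081, adjusted p = 0.22), rho = 0.77 (exact permutation p = 0.021, adjusted p = 0.38) and r = 0.86 without Vok. Without Melouprey and Vok r was 0.67 (n = 7, exact permutation p = 0.10). Of the kept rows, 8.38% had an r with HSPA8 at least as high as that of HSPH1. The share with HSPH1 at least as high as that of HSPA8 was 3.48%. A value this high was therefore not particular to the pair. HSPA8 and DNAJB1 had r = 0.73 (exact permutation p = 0.022, adjusted p = 0.29) and rho = 0.53 (exact permutation p = 0.15, adjusted p = 0.60), and r was 0.41 without Vok and 0.095 without Melouprey and Vok. HSPH1 and DNAJB1 had r = 0.72 (exact permutation p = 0.031, adjusted p = 0.32) and rho = 0.70 (exact permutation p = 0.043, adjusted p = 0.45), and r = 0.53 without Melouprey and Vok.

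HSP90AA1 had its highest r with the mitochondrial pair. Its r was 0.76 with HSPE1 (exact permutation p = 0.019, adjusted p = 0.28; rho = 0.67, exact permutation p = 0.059, adjusted p = 0.48) and 0.70 with HSPD1 (exact permutation p = 0.033, adjusted p = 0.33; rho = 0.73, exact permutation p = 0.031, adjusted p = 0.41). Without Asia and Melouprey, the lines farthest from its median, these were 0.46 and 0.79 (n = 7). With HSPA8 its r was 0.25 (exact permutation p = 0.51, adjusted p = 0.83; rho = 0.32, exact permutation p = 0.41, adjusted p = 0.78), and it was 0.46 without Vok, 0.050 without Melouprey and -0.087 without both. Between the HSP90 genes r was 0.46 (exact permutation p = 0.21, adjusted p = 0.61) but rho was 0.83 (exact permutation p = 0.0083, adjusted p = 0.31). Without Vok, the line where they part, r was 0.83, and without Asia and Melouprey it was 0.23. HSP90AB1 and HSPE1 had r = 0.65 (exact permutation p = 0.048, adjusted p = 0.37), rho = 0.78 (exact permutation p = 0.017, adjusted p = 0.36) and r = 0.66 without Melouprey and Vok. The difference between these correlations was not tested.

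HSPD1 and HSPE1 had r = 0.68 (exact permutation p = 0.045, adjusted p = 0.36) and rho = 0.47 (exact permutation p = 0.21, adjusted p = 0.65). Of the kept rows, 2.09% had an r with HSPD1 at least as high as that of HSPE1, and 5.20% had one with HSPE1 at least as high as that of HSPD1. Such shares ran between 0.818% and 11.6% over the 9 pairs with an unadjusted exact permutation p under 0.05. The lowest was for rows with DNAJB1, against HSP90AB1, and the highest for rows with HSP90AB1, against HSPE1. Leaving out a line gave 0.53 without Melouprey and 0.82 without Asia. Without China and Melouprey, the lines farthest from the median of HSPD1, r was 0.41 (n = 7), so the relation rested in part on those lines.

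**Figure D5:**
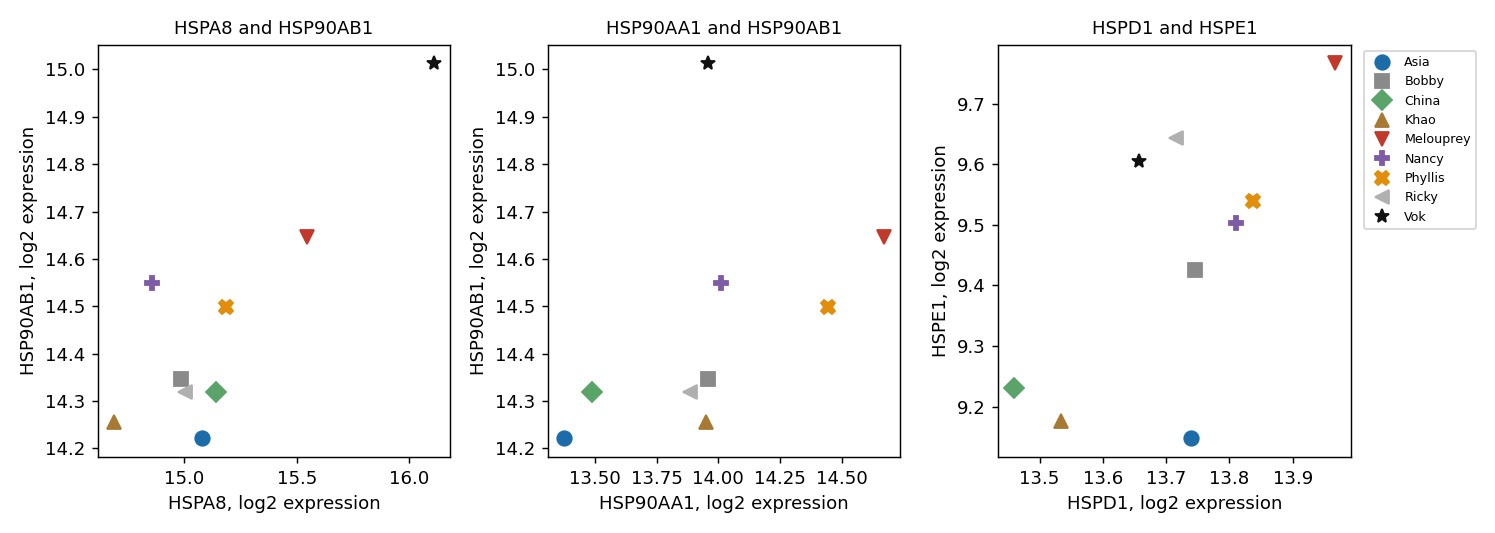
Log2 expression of one gene against another in the 9 lines for HSPA8 and HSP90AB1, HSP90AA1 and HSP90AB1, and HSPD1 and HSPE1, with 1 symbol a line. Vok lies at the upper right of the HSPA8 and HSP90AB1 panel (r = 0.86), stands above the other lines in the HSP90 panel (r = 0.46), and lies with Ricky above the trend of the chaperonin panel (r = 0.68).

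No relation between HSF1 mRNA and a chaperone passed the test. Of its 7 values of r with them, 6 were negative and 1, with HSPH1, was 0.0066, which turned negative when the line medians were made equal. With a line left out, 0 to 3 of the 7 were positive, with the most without China. Over all kept rows 49% had a positive r with HSF1. The lowest r was -0.43, with HSPE1 (exact permutation p = 0.23, adjusted p = 0.63; rho = -0.40, exact permutation p = 0.29, adjusted p = 0.71), and it was -0.89 without Melouprey, the line that was high for both, -0.29 without Khao and -0.86 without Khao and Melouprey (n = 7). The other pairs with HSF1 had exact permutation p above that of HSPE1.

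The rows most like the mean profile of HSPD1 and HSPE1 were looked up among 12582 other kept rows. The highest r over the 9 lines were 0.95 for ENSG00000129351 and 0.95 for ENSG00000079785, both highest in Melouprey. The lowest were -0.96 for ENSG00000254995 and -0.94 for ENSG00000279520, both lowest in Melouprey and highest in China. They are the extremes of a search over all these rows and carry no test, and the table gives no names for them.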

How the data were processed

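Total RNA libraries of 9 lines were analysed from 1 deposited table of 15356 rows, 15250 with human-format Ensembl gene identifiers and 106 with transcript identifiers. The values the authors deposited are on a log scale and were read as log2 expression, between 0.71 and 18.66, with no counts. The submitters' processing notes name Trimmomatic, STAR, edgeR and DESeq2, without version or role. Not given in the sources used here are the base of the logarithm, the scaling, the genome build and the way shared reads were counted. Depth is therefore unknown and no counting interval can be given, and if a regularized log or rank-based scaling was applied, differences are on that scale. The header joins the last line names with a space, and names were matched to samples after splitting it there; 0 columns were left unused.

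The 10 genes, the tests and the gene lists were chosen with earlier results of these data known. The named genes were all listed genes with a row, plus 2 rows at each end of the likeness search. The symbols came with the identifiers; the RefSeq table of Asia_NLE_v1 matched 0 rows, so other chaperone genes and cell type markers were not analysed here. Kept rows (12590) averaged 1 ppm or more of the summed antilogs. Values within 0.0001 log2 units of a row's median were counted as at the median. Pearson's r and Spearman's rho were tested by exact permutation in Python 3.11.15 with numpy 2.4.6, with Benjamini-Hochberg adjustment over 100712 relations, and the script was tested on simulated data. A limma 3.58.1 fit in R 4.3.3 (trend and robust) was an alternative, beside rescaling, a pseudocount of 1, other filters and leaving out each line.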

Additional observations from a re-analysis of the deposited data

Results flagged for a closer look

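A check for a single line far from the rest was made on 15 sets of 9 values: the levels of the 8 genes, 5 log2 differences between pairs of them, the median deviation and the summed share. Chance flags about 1 in 20 independent sets, and these overlap. The log2 difference HSPA8 minus HSPH1 stood apart by Dixon's gap criterion, at 4.09 in Vok and 3.45 in China, the next line. None of the 8 levels did.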

How the results depend on the processing

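No pair of the 8 genes was called under any rescaling, pseudocount, filter, rank or limma alternative or with any line left out. Among all relations of the 8 genes with kept rows, the exact test called 0 and limma 5 (smallest adjusted p 0.038). The pairs at an unadjusted p under 0.05 numbered 6 to 10 under the other settings and 4 to 9 with a line left out. Without Vok there were 9 such pairs, of which 5 were among the 9 found with all lines. The number of genes spanning at least 2-fold was 2 under each other setting and 1 to 2 with a line left out, the lower value being without Vok. The number of chaperones with a positive r to HSF1 was 0 with line medians made equal and 0 to 3 with a line left out, and the cause of the change with the medians was not tested. The r of HSPD1 and HSPE1 was 0.68 to 0.69 under rescaling or a pseudocount, and 0.53 to 0.82 when 1 line was dropped. The median deviation of each line moved by less than the SD between lines in all of them. No paired analysis was possible because all lines form a single group. With the depth of each library unknown, counting error was not separated from the spread.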

Other observations

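The share of the table that was related to a gene is given for each of them, and differences between these shares were not tested. At an unadjusted exact permutation p under 0.05, 23.9% of the kept rows were related to HSPA8 in either direction, 19.1% to HSP90AB1, 16.1% to HSP90AA1 and 16.0% to HSPH1. The shares were 12.9% for HSPE1 and 12.2% for DNAJB1. Only those of HSPD1, at 4.81%, and HSF1, at 2.42%, were below the 5% that such a threshold passes among unrelated rows. The adjusted p was above 0.05 for every relation (n = 9 lines). Rows vary together within a line, so the shares describe these lines and are not counts of separate relations.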
